A study of Homo sapiens with 24 samples.

Results

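The comparison described here sets the CD44v6 line of J82, an established human bladder cancer cell line, against the parental J82 cells. It was taken by group label: 3 biological replicates of J82 CD44v6 and 3 of the parental cells, 6 of the 24 libraries in the series, read across 15951 of the 35993 genes in the count table that had enough counts to test. The parental cells carry the label control for the expression of CD44 and of CD44v6. The CD44v6 line is described by its submitters as newly established and as having high CD44v6 receptor expression. The series also holds J82 lines labelled CD44 Low and CD44 High and the same 4 groups of a second bladder cancer line, RT-112, each with 3 replicates. The sources used here do not say how the lines were selected or whether each is 1 clone, nor whether the replicates are separate cultures, so the spread between them may be partly technical. The question was which transcripts differ in the line with high CD44v6.

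CD44 is a transmembrane receptor for hyaluronan, a long sugar polymer of the extracellular matrix. Its transcript is spliced in many forms, and the form that carries the v6 variant exon can act as a co-receptor for the receptor tyrosine kinase MET, whose ligand is hepatocyte growth factor. Through its cytoplasmic tail CD44 binds ezrin, radixin and moesin, the ERM proteins that link membrane receptors to actin. Signalling through receptor tyrosine kinases and RAS reaches ERK, which induces the immediate-early genes, a set of transcription factors and feedback inhibitors that are transcribed without new protein synthesis. NF-kB, a second inducible factor, drives chemokines, cytokines and its own inhibitors.

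Total counts in the 6 libraries ran from 16752825 to 22890589. Correlation of log2 CPM (read counts scaled to library size with TMM factors) placed CD44v6 replicate 2 apart from the rest, with Pearson's r of 0.948 to 0.962 against the other 11 J82 libraries. CD44v6 replicate 3 correlated more closely with CD44 High replicate 3 (r = 0.984) and with the parental replicates (0.977, 0.976 and 0.979) than with its own group (0.971 and 0.956). CD44v6 replicate 1 was at 0.969 to 0.972 against the parental replicates and at 0.962 and 0.971 against its own group. The biological coefficient of variation was 0.081 among parental and 0.246 among CD44v6 replicates. Transcript length moved with the comparison: over 5 equal groups of genes from the shortest to the longest transcripts, the median log2 difference ran from -0.17 to 0.15 over the group, from -0.31 to 0.29 in CD44v6 replicate 2 and from -0.0871 to 0.00717 in CD44v6 replicate 3. Keratins of the simple epithelium were present in J82, while 12 of 25 epithelial genes, ESRP1 and GRHL2 among them, and all 5 uroplakins searched, which mark differentiated urothelium, fell below the filter on low counts. PTPRC (leukocytes), PECAM1 and CDH5 (endothelium) and DCN (fibroblasts) also fell below it. The summed level of the 11 fibroblast genes was 840.4 to 953 CPM in parental and 643 to 873 CPM in CD44v6 libraries, carried by COL3A1 and POSTN. That of the 11 leukocyte genes was 153 to 177 and 106 to 187 CPM, almost all CD68, and that of the 10 endothelial genes 10.5 to 13.3 and 11.1 to 30.7 CPM, with the highest value in CD44v6 replicate 2. None of the members of these 3 lists that could be tested was called.

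CD44 is given first because the lines carry its name. Its level was 493, 399 and 452 CPM in parental replicates 1 to 3 and 725, 1076 and 617 CPM in CD44v6 replicates 1 to 3. The groups did not overlap, and CD44v6 replicate 2 was the highest. CD44 was higher in CD44v6, with a log2 difference of 0.85 (SE 0.17, adjusted p = 0.0214). The adjusted p was 0.0911, 0.121 and 0.0764 without parental replicate 1, 2 or 3, 0.0866 in a fit on the 6 libraries alone, and 0.0301 without CD44v6 replicate 2, where the change was 0.58. These counts sum all CD44 transcripts, so they give no separate value for transcripts with the v6 exon. In the same fit CD44 was at 255 to 312 CPM in CD44 Low and 714 to 772 CPM in CD44 High, -0.68 and 0.71 against the same parental libraries. The CD44v6 libraries spanned the CD44 High range.

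Of the 15951 genes tested, 415 (2.6%) were called at an adjusted p under 0.05 (edgeR's quasi-likelihood test, two-sided, Benjamini-Hochberg adjustment over all genes tested). The background was 1.86% called higher and 0.74% called lower in CD44v6, or 297 and 118 genes. The median size of a called change was 0.77 on the log2 scale, and 106 higher and 29 lower genes changed at least 2-fold. No called gene had overlapping groups, while 13.4% and 13.9% of all genes tested were higher or lower with no overlap. Leaving out 1 library left 32, 49 or 117 calls without parental replicate 1, 2 or 3, and 303, 171 or 1120 without CD44v6 replicate 1, 2 or 3. Under those 6 fits 32 of the 415 genes were called every time, 24 higher and 8 lower. Among genes named here these were FOS, FOSB, EGR1, JUNB, IER2, KLF4, RHOB, DUSP1, ITGA2, COL4A2, COL6A1, PLAU, VIM, CDCP1, SLC12A7, PSTPIP2, IGFBP7, CDKN1A and NR1D1, all higher, and RGS7BP, IGFBP5, SNORD10, CALD1 and PSG1, all lower. Every other gene named as called lost its call at least without parental replicate 1.

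**Figure D1:**
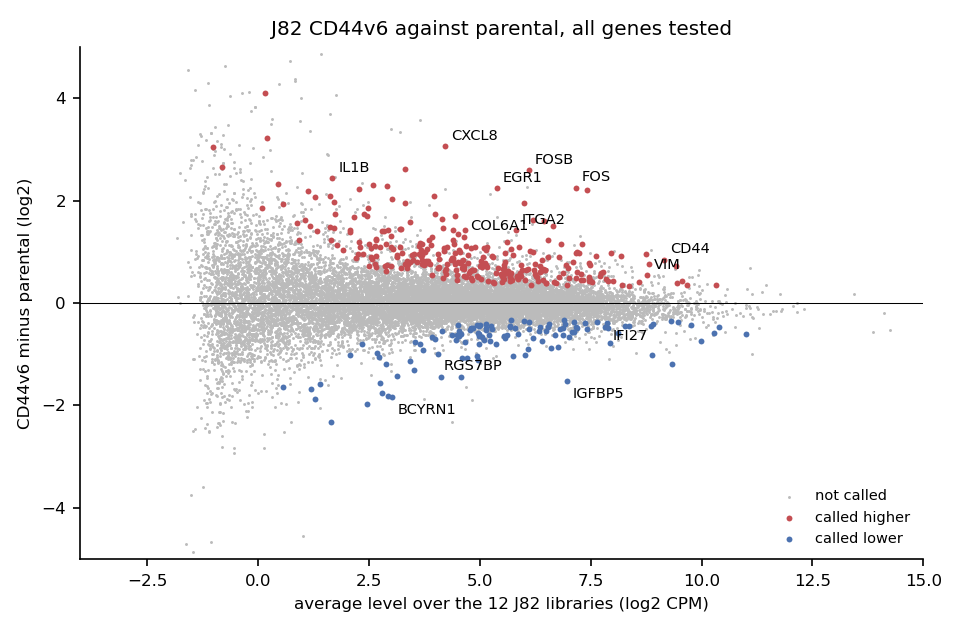
Log2 difference between J82 CD44v6 and parental (vertical axis) against the average level over the 12 J82 libraries in log2 CPM (horizontal axis), 1 point per gene tested, with genes called higher in red, called lower in blue and 33 genes beyond 5 left out. The 297 called increases reach higher values than the 118 called decreases, with CXCL8 at 3.07 and IGFBP5 at -1.53.

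Gene lists were described by how many of their members passed the test and by their median change, beside a median of 0.0099 over all genes tested and the 2.6% called. All lists were chosen with earlier results of these data known, so their shares of called members are a description and not a test. The immediate-early list stood highest, with 19 of its 37 tested members called higher, none lower, and a median log2 difference of 0.97. Next came the list of NF-kB feedback genes and chemokines, with 16 of 34 called higher, none lower, and a median of 0.95. Lists for the EGFR family, ERK feedback, TGF-beta, collagens, integrins and stem-like state each had 3 or 4 members called, all higher, and medians between 0.39 and 0.73. At the lower end stood the replication-dependent histones, with 4 of 44 called lower and a median of -0.46. The plot of gene lists shows the members of every list.

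**Figure D2:**
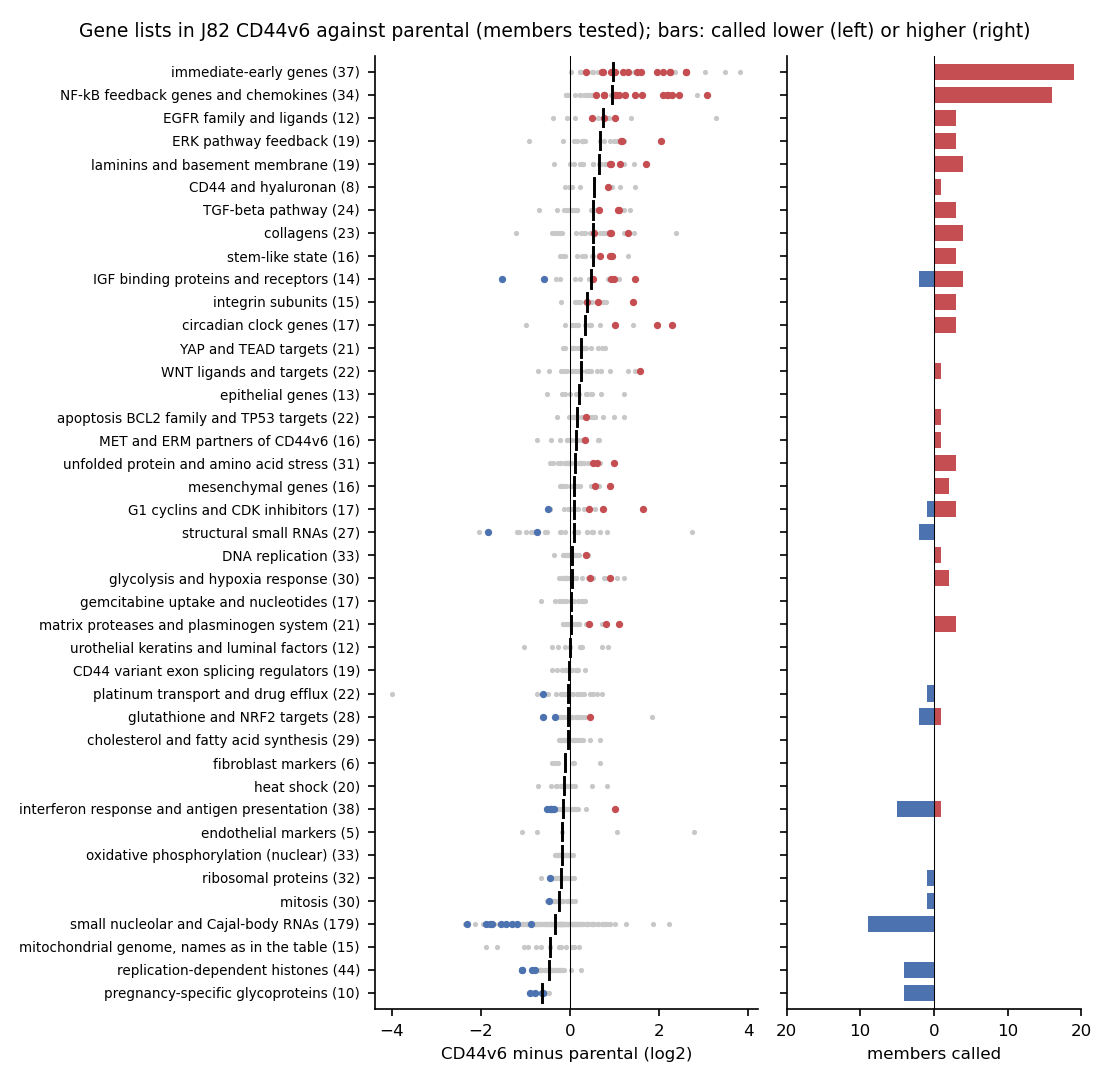
Each row is a gene list with its number of tested members; points on the left give each member's log2 difference between J82 CD44v6 and parental (red called higher, blue called lower, grey not called; values beyond 4 are drawn at 4) and black ticks the median, and bars on the right count the called members. Immediate-early genes (19 called higher) and NF-kB feedback genes and chemokines (16) have the longest bars, and the pregnancy-specific glycoproteins and histones have the lowest medians.

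Immediate-early transcription factors rose in CD44v6. All 37 tested members of the list (of 38) had a positive difference, and 19 (51.4%, against the 1.86% background for increases) were called. The choice of this list, made with earlier results of these data known, limits that comparison. FOS, a subunit of the AP-1 factor, stood at 30.6, 25.1 and 48.2 CPM in parental replicates 1 to 3 and at 139, 147 and 209 CPM in CD44v6 replicates 1 to 3. The lowest CD44v6 library was well above the highest parental one, and the log2 difference was 2.25 (SE 0.28, adjusted p = 0.00292). FOSB, which can take the place of FOS in AP-1, was at 14.6, 7.01 and 20.8 CPM against 64.01, 116 and 77.3 CPM, a difference of 2.6 (SE 0.35, adjusted p = 0.00358). JUNB, a partner of both, was at 35.2, 37.4 and 39.02 CPM against 89.2, 120.4 and 129 CPM, a difference of 1.6 (SE 0.20, adjusted p = 0.00292). For each of these 3 AP-1 genes the groups were apart. The JUNB gene overlaps HOOK2 in part, and whether counting used strand is not given in the sources used here. JUN itself rose less, by 0.96 (adjusted p = 0.0119).

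EGR1, a zinc-finger factor that is a standard readout of ERK activity, was at 16.3, 11.8 and 11.8 CPM in parental and 46.9, 80.5 and 62.8 CPM in CD44v6 libraries. The highest CD44v6 value was in replicate 2, and no parental library came near the CD44v6 range: the log2 difference was 2.25 (SE 0.30, adjusted p = 0.00358). IER2, a small nuclear protein of the same early wave, rose from 42.2, 37.6 and 41.7 to 70.6, 93.2 and 81.9 CPM, with a difference of 1.02 (SE 0.12, adjusted p = 0.00191). KLF4, a factor used in reprogramming, rose by 0.94 (adjusted p = 0.00358). The orphan nuclear receptors NR4A1 and NR4A2 differed by 2.61 (SE 0.60, adjusted p = 0.0404) and 2.1 (SE 0.30, adjusted p = 0.00518). NR4A1 was uneven among the CD44v6 libraries, at 5.61, 15.04 and 23.9 CPM, and kept its call in 1 of the 6 fits. CSRNP1 and IER3 rose by 1.95 and 1.5, and KLF10, which mediates TGF-beta responses, by 0.97. Among abundant members that did not pass the test, GADD45A, a stress-induced growth-arrest gene, differed by 0.53 (adjusted p = 0.0878), and CCN1, a matricellular protein, by 0.62 (adjusted p = 0.280), at 193, 174 and 156 CPM against 205, 441 and 156 CPM. The other called members of the list, MAFF, RHOB, TIPARP, IER5, BTG1, PPP1R15A and MCL1, rose by 0.36 to 1.29.

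The number of immediate-early genes called depended on the libraries. It was 7, 8 and 14 without parental replicate 1, 2 or 3, and 20, 15 and 16 without CD44v6 replicate 1, 2 or 3, with none called lower in any of these fits. The median difference ran from 0.92 to 1.12, and at least 35 of the 37 members stayed positive. Transcript length, which moved with the comparison, was taken into account in a fit with length offsets: 20 members were then called higher, with a median of 1.02.

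**Figure D3:**
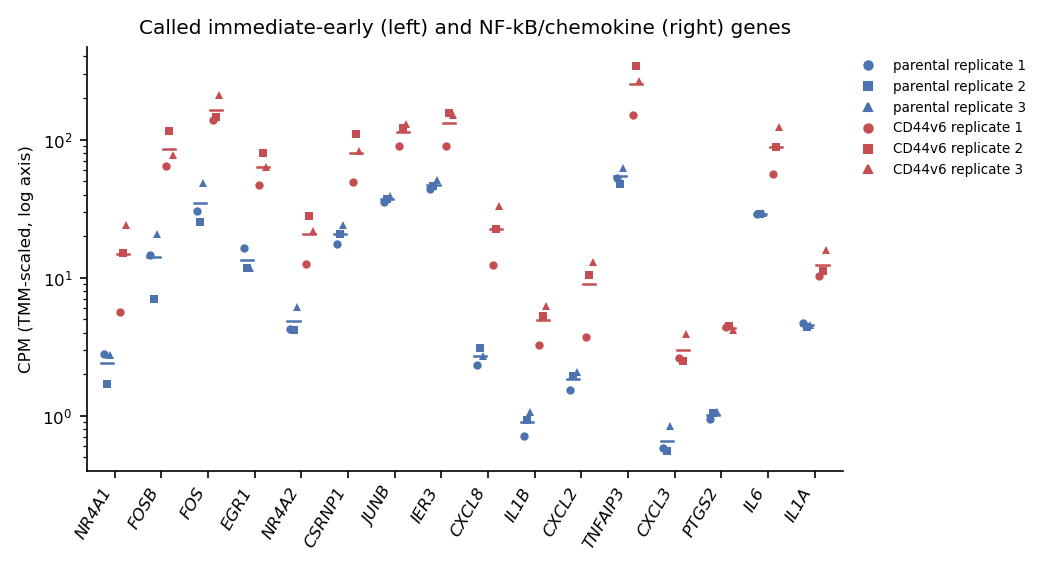
TMM-scaled CPM (log axis) of the 8 called immediate-early genes with the largest change and of the 8 called NF-kB and chemokine genes with the largest change, in each parental (blue) and CD44v6 (red) library; symbols give the replicate number and bars the group means. For all 16 genes every CD44v6 library is above every parental library, and CD44v6 replicate 1 is the lowest of its group in most of them.

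Chemokines and cytokines of the NF-kB list rose as well. Of 40 members 34 were tested and 16 (47.1%) were called higher. CXCL8, the neutrophil chemoattractant interleukin-8, went from 2.33, 3.09 and 2.696 CPM in parental replicates to 12.4, 22.6 and 33.1 CPM in CD44v6 replicates. CD44v6 replicate 3 was the highest and replicate 1 the lowest, still above every parental library, and the difference was 3.07 (SE 0.52, adjusted p = 0.0118). IL1B, an inflammatory cytokine, was at 0.717, 0.938 and 1.06 CPM against 3.25, 5.31 and 6.25 CPM, a difference of 2.44 (SE 0.44, adjusted p = 0.0146). IL6, whose receptor signals through STAT3, was at 28.9, 28.8 and 29.5 CPM against 55.9, 88.4 and 122 CPM, a difference of 1.61 (SE 0.36, adjusted p = 0.0360). The parental values of IL6 were almost equal, while its CD44v6 values were widely spread. The chemokines CXCL2 and CXCL3 rose by 2.29 and 2.18, though CXCL2 lay near the threshold (adjusted p = 0.0467), and IL1A, the second interleukin-1 ligand, by 1.45 (SE 0.25, adjusted p = 0.0130). PTGS2, which encodes cyclooxygenase-2, was even in both groups, at 0.942, 1.05 and 1.06 CPM against 4.38, 4.48 and 4.205 CPM, and rose by 2.09 (SE 0.38, adjusted p = 0.0150).

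Inhibitors that NF-kB induces against itself followed. TNFAIP3, the ubiquitin-editing enzyme A20, was at 52.6, 47.9 and 62.4 CPM in parental and 150.3, 339 and 264 CPM in CD44v6 libraries. CD44v6 replicate 2 was the highest and the groups were far apart, with a difference of 2.21 (SE 0.35, adjusted p = 0.00922). NFKBIZ and NFKBIE, members of the inhibitor of kappa B family, rose by 1.23 and 0.98, BIRC3, an inhibitor of apoptosis, by 1.03 (SE 0.17, adjusted p = 0.0110), the subunits NFKB2 and RELB by 0.77 and 0.77, TRAF1, a receptor adaptor, and ICAM1, a leukocyte adhesion receptor, by 1.11 and 0.58, and the transcription factor IRF1 by 1.0 (SE 0.15, adjusted p = 0.00712). SOD2, a mitochondrial superoxide dismutase, and TNIP1, which assists A20, were the most abundant members that did not pass, with differences of 0.22 (adjusted p = 0.233) and 0.35 (adjusted p = 0.0793). Without parental replicate 1, 2 or 3 the list had 0, 1 or 6 members called higher, and without CD44v6 replicate 1, 2 or 3 it had 17, 11 or 15. Its median difference stayed between 0.58 and 1.08, with at least 31 of 34 members positive in every one of these fits.

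Promoter sequences are shown for the called members of both lists with the largest change whose 250 bases before the transcription start held a match to the classical element of the factor, since these genes carry the 2 strongest groups of increases. They come from RefSeq (GRCh38.p14) and are written 5′ to 3′ along the gene. Capitals mark matches, on either strand, to the CArG box (bound by serum response factor) in EGR1 and to the NF-kB element in the other genes, each searched in its usual consensus form.
EGR1, chr5:138465229-138465478, plus strand: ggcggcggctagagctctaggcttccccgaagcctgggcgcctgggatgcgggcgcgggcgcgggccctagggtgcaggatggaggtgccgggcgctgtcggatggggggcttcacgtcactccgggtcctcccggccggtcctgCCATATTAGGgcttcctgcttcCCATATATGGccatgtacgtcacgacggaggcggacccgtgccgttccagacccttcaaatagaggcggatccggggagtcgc
CXCL2, chr4:74099196-74099445, minus strand: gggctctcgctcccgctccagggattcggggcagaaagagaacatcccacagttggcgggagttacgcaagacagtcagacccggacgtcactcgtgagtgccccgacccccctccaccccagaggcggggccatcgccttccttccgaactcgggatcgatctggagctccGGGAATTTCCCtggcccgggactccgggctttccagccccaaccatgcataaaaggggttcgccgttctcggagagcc
TNFAIP3, chr6:137867009-137867258, plus strand: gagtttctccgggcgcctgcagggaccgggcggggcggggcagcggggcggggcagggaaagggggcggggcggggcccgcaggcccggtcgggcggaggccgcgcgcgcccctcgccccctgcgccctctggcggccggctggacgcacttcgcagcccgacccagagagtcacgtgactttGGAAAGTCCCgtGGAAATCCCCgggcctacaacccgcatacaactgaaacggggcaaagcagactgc
CXCL3, chr4:74038690-74038939, minus strand: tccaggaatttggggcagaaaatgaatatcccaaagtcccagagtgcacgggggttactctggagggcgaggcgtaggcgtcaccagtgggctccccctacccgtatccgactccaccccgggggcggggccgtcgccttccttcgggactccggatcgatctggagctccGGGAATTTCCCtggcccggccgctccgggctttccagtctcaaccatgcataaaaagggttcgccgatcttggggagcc

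EGR1 held 2 CArG boxes, between 105 and 74 bases before the start. TNFAIP3 held 2 NF-kB matches, between 67 and 46 bases before the start. In CXCL2 and CXCL3, neighbouring paralogs, the capitals are 1 stretch of 11 bases in which 2 matches overlap, beginning 78 and 79 bases before the start. NF-kB matches were found in 13 of the 28 promoters (46.4%) that were present for the 34 tested members of the NF-kB list, against 9.57% of all 27305 promoters in the table and 11.6% of the 10961 that were present for genes tested. Called members held one in 7 of 14 promoters and uncalled members in 6 of 14. The AP-1 motif TGAGTCA was found in the promoters of CXCL8 and IL1A, and in 4.16% of all promoters and 2.56% of those of genes tested. For the immediate-early list 28 of 37 members (75.7%) had a promoter entry, of which 3 held CRE, 2 a CArG box, 2 an NF-kB match and 0 AP-1. A CArG box was found in 1 of 15 promoters of called members, that of EGR1, and in 1 of 13 of uncalled members. It was found in 1.14% of all promoters and 0.985% of those of genes tested. The NF-kB matches were in 0 of 15 promoters of called and 2 of 13 of uncalled members. CRE (TGACGTCA), searched in the same way, was found in the promoters of the called immediate-early genes MAFF and PPP1R15A and in 1.77% of all promoters and 2.89% of those of genes tested. A match describes these letters and does not show that a factor was bound.

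Feedback inhibitors of the ERK pathway rose in part: 3 of 19 members were called, all higher, with a median of 0.66. DUSP1, a phosphatase of stress-activated kinases, was at 54.1, 48.8 and 56.8 CPM in parental and 99.2, 116 and 143 CPM in CD44v6 libraries. The groups were well apart and the difference was 1.16 (SE 0.16, adjusted p = 0.00367). DUSP6, the phosphatase specific for ERK, was at 7.71, 8.33 and 7.82 CPM against 17.1, 15.8 and 19.8 CPM and rose by 1.14 (SE 0.19, adjusted p = 0.0110). SPRY4, a Sprouty inhibitor of RAS signalling, was uneven, at 3.498, 3.37 and 3.86 CPM against 6.204, 24.6 and 13.4 CPM, a difference of 2.04 (SE 0.42, adjusted p = 0.0267). DUSP4 was the most abundant member that did not pass (0.35, adjusted p = 0.0935). Without CD44v6 replicate 2 the list had 2 called members, and without each parental replicate 1, 1 and 2.

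Receptors and their regulators held few calls. MET, the partner of CD44v6 in hepatocyte growth factor signalling, was at 295, 297 and 314 CPM in parental and 372, 390.0 and 372 CPM in CD44v6 libraries. The values were even within each group, and MET rose by 0.32 (SE 0.07, adjusted p = 0.0327). The call held in 1 of the 6 fits without 1 library. MET was at 210 to 228 CPM in CD44 Low and at 413 to 426 CPM in CD44 High, where every library was above every CD44v6 library. In CD44v6 MET was the single called gene of 16 tested in the list of MET and ERM partners. EZR of that list, which encodes ezrin, differed by -0.43 (adjusted p = 0.0903). In the EGFR family and ligand list 3 of 12 tested members were called higher: ERRFI1 (1.01, SE 0.19, adjusted p = 0.0175) and LRIG1 (0.76, SE 0.14, adjusted p = 0.0191), both inhibitors of EGFR, and the ligand NRG1 (0.49, SE 0.12, adjusted p = 0.0467). EGFR itself was at 155, 141 and 159 CPM against 205, 339 and 157 CPM, where CD44v6 replicate 3 lay within the parental range, and did not pass (0.62, adjusted p = 0.165). In the TGF-beta list 3 of 24 were called higher, SMAD7, the inhibitory SMAD (1.07, SE 0.21, adjusted p = 0.0236), TGFBR3, the co-receptor betaglycan (0.65, SE 0.14, adjusted p = 0.0337), and ID1, a target of bone morphogenetic proteins (1.1, SE 0.21, adjusted p = 0.0210). Without CD44v6 replicate 2 none of SMAD7, TGFBR3, ID1, ERRFI1, LRIG1, NRG1 and MET passed.

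Single adhesion receptors and matrix genes rose, with 3 of 15 integrin subunits, 4 of 23 collagens and 3 of 21 matrix proteases and plasminogen genes called higher. ITGA2, the collagen-binding integrin alpha-2 chain, was at 29.4, 36.97 and 39.6 CPM in parental and 84.1, 111 and 88.6 CPM in CD44v6 libraries. Every CD44v6 library was above 80 CPM and every parental one below 40 CPM, and the difference was 1.42 (SE 0.15, adjusted p = 0.00124). CDCP1, a transmembrane substrate of SRC kinases, was at 10.8, 8.55 and 12.1 CPM against 25.8, 36.1 and 25.6 CPM, a difference of 1.47 (SE 0.16, adjusted p = 0.00124). The p-values of both genes were among the 5 smallest of the comparison, as were those of SLC12A7, a potassium-chloride cotransporter (1.43, SE 0.15, adjusted p = 0.00124), and PSTPIP2, an F-BAR protein that shapes membranes over actin (1.7, SE 0.18, adjusted p = 0.00124). Without CD44v6 replicate 2 the adjusted p of each of these 4 genes was 0.00306.

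Of 23 collagen genes tested, 4 were called, all higher. COL6A1, of the beaded filaments around cells, was at 13.9, 17.5 and 15.9 CPM in parental and 41.2, 45.1 and 29.99 CPM in CD44v6 libraries, a difference of 1.3 (SE 0.15, adjusted p = 0.00181). COL4A1 and COL4A2, which share a promoter and form the main basement membrane collagen, rose by 0.89 (SE 0.13, adjusted p = 0.00601) and 0.91 (SE 0.11, adjusted p = 0.00241). COL27A1 rose by 0.53 (adjusted p = 0.0448). The integrin list had 3 of 15 tested members called higher, ITGA2, ITGA1 (0.64, SE 0.12, adjusted p = 0.0204), another collagen receptor chain, and ITGA3 (0.39, SE 0.09, adjusted p = 0.0418), a laminin receptor chain. ITGB1, their shared beta chain, did not pass (0.19, adjusted p = 0.233). In a list of laminins and basement membrane genes that was added after values were seen, 4 of 19 were called higher, with LAMA5 at 12.1, 9.66 and 13.1 CPM against 24.6, 63.4 and 25.7 CPM, the highest value being in CD44v6 replicate 2. Among matrix proteases 3 of 21 were called higher: the plasminogen activators PLAU (0.81, SE 0.11, adjusted p = 0.00358) and PLAT (1.1, SE 0.18, adjusted p = 0.0110) and the inhibitor TIMP3 (0.43, SE 0.10, adjusted p = 0.0402). Without CD44v6 replicate 2 the counts of called members were 3 for collagens and 2 each for integrins and proteases; ITGA1, ITGA3, COL27A1 and TIMP3 were not called there.

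Markers of epithelial and mesenchymal state held few calls. VIM, the intermediate filament vimentin, was at 381, 357 and 374 CPM in parental and 565, 536 and 527 CPM in CD44v6 libraries. The values were close within each group and the difference was 0.55 (SE 0.077, adjusted p = 0.00425). SPARC, a secreted collagen-binding protein, rose by 0.89 (SE 0.22, adjusted p = 0.0485). No other of the 16 mesenchymal genes tested was called: FN1, fibronectin, was at 382, 329 and 278 CPM against 361, 445 and 212 CPM and differed by 0.041 (adjusted p = 0.947), with overlapping groups. None of the 13 epithelial genes or the 12 keratins and luminal factors tested was called. At an unadjusted p under 0.05 a total of 3141 genes passed across the table, so the 0 in these lists refers to the adjusted test.

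Insulin-like growth factor (IGF) binding proteins moved both ways. In this list 4 of 14 tested members were called higher and 2 lower. IGFBP5, which binds IGFs at the cell surface and in matrix, was at 116, 82.7 and 83.95 CPM in parental and 38.6, 32.4 and 27.3 CPM in CD44v6 libraries. All 3 CD44v6 values were below 40 CPM and all 3 parental values above 80 CPM, and IGFBP5 fell by 1.53 on the log2 scale (SE 0.21, adjusted p = 0.00367). IGFBP3, the main carrier of IGFs in blood, fell from 1524, 1587 and 1317 CPM to 1086, 895 and 987 CPM, by 0.58 on the log2 scale (adjusted p = 0.0143). IGFBP7 was at 15.8, 16.1 and 16.4 CPM against 33.6, 28.3 and 34.4 CPM and rose by 1.0 (SE 0.13, adjusted p = 0.00358). IGFBP4 and IGFBP2 rose by 1.45 (adjusted p = 0.0270) and 0.91 (adjusted p = 0.0335), and STC2, a secreted inhibitor of IGF release, by 0.51 (adjusted p = 0.0322). IGFBP4 and STC2 were not called without CD44v6 replicate 2.

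Most cell-cycle calls were in the list of G1 cyclins and CDK inhibitors, with 3 of 17 tested members called higher and 1 lower (23.5%). Without CD44v6 replicate 2 that list had 1 member called higher and 0 lower. CDKN1A, the CDK inhibitor p21, was at 6.91, 8.498 and 9.52 CPM in parental and 18.9, 30.6 and 27.7 CPM in CD44v6 libraries. The groups were far apart, with a difference of 1.63 (SE 0.22, adjusted p = 0.00367). CCND1, cyclin D1, rose by 0.42 (SE 0.082, adjusted p = 0.0204), and MDM2, which degrades p53, by 0.74 (SE 0.18, adjusted p = 0.0467). CDKN2B, the CDK inhibitor p15, fell by 0.50 on the log2 scale (adjusted p = 0.0247). Of 30 mitosis genes 1, the kinesin KIF20A, was called, with a difference of -0.48 (SE 0.10, adjusted p = 0.0275), though 28 of the 30 differences were negative with a median of -0.24. The helicase subunit MCM2 was the single called gene of 33 for DNA replication (0.35, adjusted p = 0.0204).

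In the stem-like state list 3 of 16 tested members were called higher. They were KLF4, given above, HES1, a repressor induced by NOTCH (0.91, SE 0.17, adjusted p = 0.0204), and JAG1, a NOTCH ligand (0.68, SE 0.13, adjusted p = 0.0204). HES1 and JAG1 were not called without CD44v6 replicate 2. Drug-handling genes showed 1 call among 22 in the platinum transport and efflux list: ABCB1, the efflux pump P-glycoprotein, fell from 29.8, 26.8 and 29.4 CPM to 20.4, 17.5 and 18.3 CPM. Each CD44v6 library was below each parental one, a fall of 0.61 on the log2 scale (SE 0.10, adjusted p = 0.0110). None of the 17 gemcitabine genes was called. Among 28 glutathione and NRF2 genes, FTL, the ferritin light chain, and TKT, transketolase, fell by 0.60 and 0.35 on the log2 scale (adjusted p = 0.0157 and 0.0341), and AKR1C1, an aldo-keto reductase, rose by 0.45 (adjusted p = 0.0469). Stress lists held few calls: ADM, adrenomedullin, and P4HA2, a collagen prolyl hydroxylase, rose by 0.45 (adjusted p = 0.0171) and 0.89 (adjusted p = 0.0298), in the glycolysis and hypoxia list of 30. CEBPB and SESN2 rose by 0.61 (adjusted p = 0.00691) and 0.98 (adjusted p = 0.0307), beside STC2, in the unfolded protein and amino acid stress list of 31. TCF7, a WNT effector, rose by 1.56 (adjusted p = 0.0482).

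Among genes outside these lists, RGS7BP, which anchors regulators of G-protein signalling to the membrane, fell from 17.5, 17.3 and 17.1 CPM to 9.45, 8.78 and 7.91 CPM. The parental values were almost equal, and the fall was 0.99 on the log2 scale (SE 0.11, adjusted p = 0.00169). NR1D1, the clock repressor REV-ERB alpha, rose from 1.93, 1.38 and 1.96 CPM to 7.63, 12.1 and 6.36 CPM, a difference of 2.3 (SE 0.33, adjusted p = 0.00516). It overlaps THRA in part, so reads of the overlap cannot be assigned with certainty. In a list of clock genes added after values were seen, 3 of 17 were called higher, NR1D1, PER1 (1.95, adjusted p = 0.0222) and BHLHE40 (1.01, adjusted p = 0.0450). RIPK4, a kinase of epithelial differentiation, rose by 2.23 (SE 0.46, adjusted p = 0.0284), at 4.14, 14.7 and 5.201 CPM in the CD44v6 replicates. CALD1, the actin-binding caldesmon, named here after its values were seen, fell from 847, 964 and 763 CPM to 383, 291 and 454 CPM, by 1.19 on the log2 scale (adjusted p = 0.00367). The pregnancy-specific glycoproteins, paralogs whose reads can be hard to tell apart, were also listed after values were seen: all 10 differences were negative and 4, PSG1, PSG2, PSG5 and PSG8, were called, 3 of them without CD44v6 replicate 2. PSG1 was at 313, 278 and 268 CPM against 173, 148 and 177 CPM, a difference of -0.79 (SE 0.10, adjusted p = 0.00292), and PSG2, PSG5 and PSG8 differed by -0.62, -0.62 and -0.91.

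Among the called genes named here, a pair had no count in all parental or in all CD44v6 libraries. PAK6, a p21-activated kinase, was at 0 in all parental libraries and at 1.03, 0.955 and 0.830 CPM in the CD44v6 libraries, 52 counts in all. Against a floor of 3 counts over the parental group it was at least 18.6-fold higher, and it overlaps a joined gene, BUB1B-PAK6. PAK6 was also at 0 in all CD44 Low libraries, and at 0.522 to 1.16 CPM in the CD44 High libraries. FAM198B-AS1 was at 0.852, 0.662 and 1.004 CPM in parental libraries, 50 counts in all, and at 0 in all CD44v6 libraries, at least 15.4-fold lower against the same floor over the CD44v6 group. It is an antisense RNA to GASK1B, a Golgi-associated kinase, which fell from 12.1, 10.7 and 9.89 CPM to 4.83, 4.54 and 5.53 CPM, by 1.13 on the log2 scale (adjusted p = 0.0120). Whether counting used strand is not given in the sources used here, so reads of this pair cannot be told apart.

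A few interferon-stimulated genes fell by a small amount. Of 38 tested members of the interferon and antigen presentation list 5 were called lower, and IRF1 higher. MX1, an antiviral GTPase, was at 957, 880.2 and 919 CPM in parental and 740.3, 591 and 717 CPM in CD44v6 libraries, a difference of -0.43 (SE 0.091, adjusted p = 0.0307). Other members called lower were OAS1 (-0.51), ISG15 (-0.45) and IFI27 (-0.40). The lowest CD44v6 value of each of these genes was in replicate 2. No gene of the list was called lower without that library or without any one parental replicate.

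Of 44 tested replication-dependent histone genes 4 were called lower, and 42 differences were negative. Their transcripts end in a stem-loop in place of a poly(A) tail, and near-identical copies make the counts of single genes uncertain. H3C3 was at 50.9, 43.3 and 39.1 CPM in parental and 21.2, 16.4 and 25.3 CPM in CD44v6 libraries, a difference of -1.08 (SE 0.22, adjusted p = 0.0270). H2AC16, H2BC21 and H4C2 differed by -1.08, -0.85 and -0.79. The abundant linker histone H1-4 did not pass (-0.58, adjusted p = 0.0724). No histone gene of the list was called without CD44v6 replicate 2 or without any one parental replicate. The summed level of the list was 6689.9 to 7034 CPM in parental and 5502, 3938 and 5251 CPM in CD44v6 replicates 1 to 3.

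Small non-coding RNAs were prominent among the largest decreases. The list of structural small RNAs as a whole went both ways. Of its 27 tested members 2 were called lower and 0 higher, 14 differences were positive and the median was 0.078. Small nucleolar and Cajal-body RNAs guide chemical modification of ribosomal and spliceosomal RNA and mostly lie in introns of host genes. In a list of them added after values were seen, 9 of 179 tested members were called lower and none higher, with a median of -0.33. SNORA49 was at 8.43, 4.64 and 4.97 CPM in parental and 1.58, 1.07 and 0.941 CPM in CD44v6 libraries, a difference of -2.32 (SE 0.37, adjusted p = 0.00956). SNORD10, which lies within EIF4A1 and can share its reads, was at 42.9, 42.8 and 31.1 CPM against 13.9, 17.1 and 12.1 CPM, a difference of -1.44 (SE 0.19, adjusted p = 0.00358). The other 7 (SNORA2C, SNORA70, SNORA48, SCARNA22, SCARNA6, SCARNA28 and SNORD133) differed by -1.88 to -0.87. The share of all counts in these RNAs was 0.333% to 0.480% in parental libraries and 0.358%, 0.315% and 0.131% in CD44v6 replicates 1 to 3. The parental and CD44v6 ranges overlapped. With length offsets the median of the list was -0.02 with 6 called, and without CD44v6 replicate 2 5 were called.

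A pair of polymerase III transcripts of the brain cytoplasmic RNA family, BCYRN1 and its near copy BCYRN1P1, were at 15.6, 16.7 and 15.01 CPM against 3.79, 2.81 and 6.64 CPM and at 4.98, 4.25 and 3.38 CPM against 0.689, 1.55 and 1.72 CPM. They differed by -1.84 and -1.68, and their reads may be shared. RMRP, the RNA of an RNA-processing ribonuclease, was at 1442, 1373 and 1168 CPM against 918, 763 and 718 CPM (-0.73, adjusted p = 0.0187), and the 7SK pseudogene RN7SKP185 differed by -1.44 (adjusted p = 0.0143). RPLP1 was the single called gene of 32 ribosomal protein genes (-0.45, adjusted p = 0.0478). Names that join 2 neighbouring genes were uncertain, since reads can be assigned to either gene or to the joined one. P2RX5-TAX1BP3 and BORCS8-MEF2B were called lower by -1.97 and -1.58. SPECC1L-ADORA2A was called higher by 6.47 on 1 library, with 1.08, 59.04 and 0.609 CPM in the CD44v6 replicates, and without CD44v6 replicate 2 its adjusted p was 0.273.

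The J82 CD44 High and CD44 Low lines were fitted with the same parental libraries, so the values below are set side by side and are not independent. In CD44 Low 5.34% of genes were called against parental cells, 2.26% higher and 3.08% lower, and in CD44 High 2.94%, 1.71% higher and 1.23% lower. Of the 297 genes called higher in CD44v6, 177 were also called higher in CD44 High and 59 in CD44 Low. Of the 118 called lower, 58 were also called lower in CD44 High and 13 in CD44 Low. The median differences of these 297 and 118 genes were 0.71 and -0.51 in CD44 High and 0.020 and -0.097 in CD44 Low. The immediate-early list had a median of 0.98 in CD44 Low, 1.02 in CD44 High and 0.97 in CD44v6, with 19 members called higher in each. FOS differed by 2.36, 2.49 and 2.25 in the same order, JUNB by 1.29, 1.55 and 1.6, and IER2 by 0.92, 1.02 and 1.02. These genes were lower in the parental libraries than in each of the 3 newly established lines.

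Some of the called genes had another pattern, in which CD44 Low lay on the other side of the parental cells; the genes given here were picked after their values were seen. ITGA2 was at 8.84 to 11.6 CPM in CD44 Low and 72.1 to 91.4 CPM in CD44 High, which are -1.78 and 1.26 against parental, beside 1.42 in CD44v6. The values of CDCP1 were -1.87, 1.49 and 1.47 and those of COL6A1 -0.92, 1.21 and 1.3 in CD44 Low, CD44 High and CD44v6. PLAU, VIM and IGFBP7 followed the same order: -0.77, 1.05 and 0.81 for PLAU, -0.67, 0.72 and 0.55 for VIM, and -1.14, 1.26 and 1.0 for IGFBP7. Several decreases were mirrored. IGFBP5 was at 289 to 418 CPM in CD44 Low and 18.9 to 31.7 CPM in CD44 High, or 1.87 and -1.84, beside -1.53 in CD44v6. RGS7BP differed by 0.95, -1.35 and -0.99, ABCB1 by 1.11, -0.76 and -0.61, and CDKN2B by 0.73, -0.98 and -0.50. In all of these genes CD44 Low and CD44 High were each called against parental. Further matrix genes were mixed. COL4A2 was at 90.9 to 108 CPM in CD44 Low and 257 to 300 CPM in CD44 High, below and above every parental library. PLAT, at 9.27 to 12.2 and 35.0 to 45.1 CPM, lay on the same sides. LAMA5, SPARC and the uncalled FN1 did not have this pattern and differed by 0.10, 0.19 and 0.37 in CD44 Low. The collagen list had a median of 0.19 in CD44 Low, with 3 members called higher and 4 lower. The levels of CD44 in the 4 groups were in the order CD44 Low, parental, then CD44 High and CD44v6, which overlapped.

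**Figure D4:**
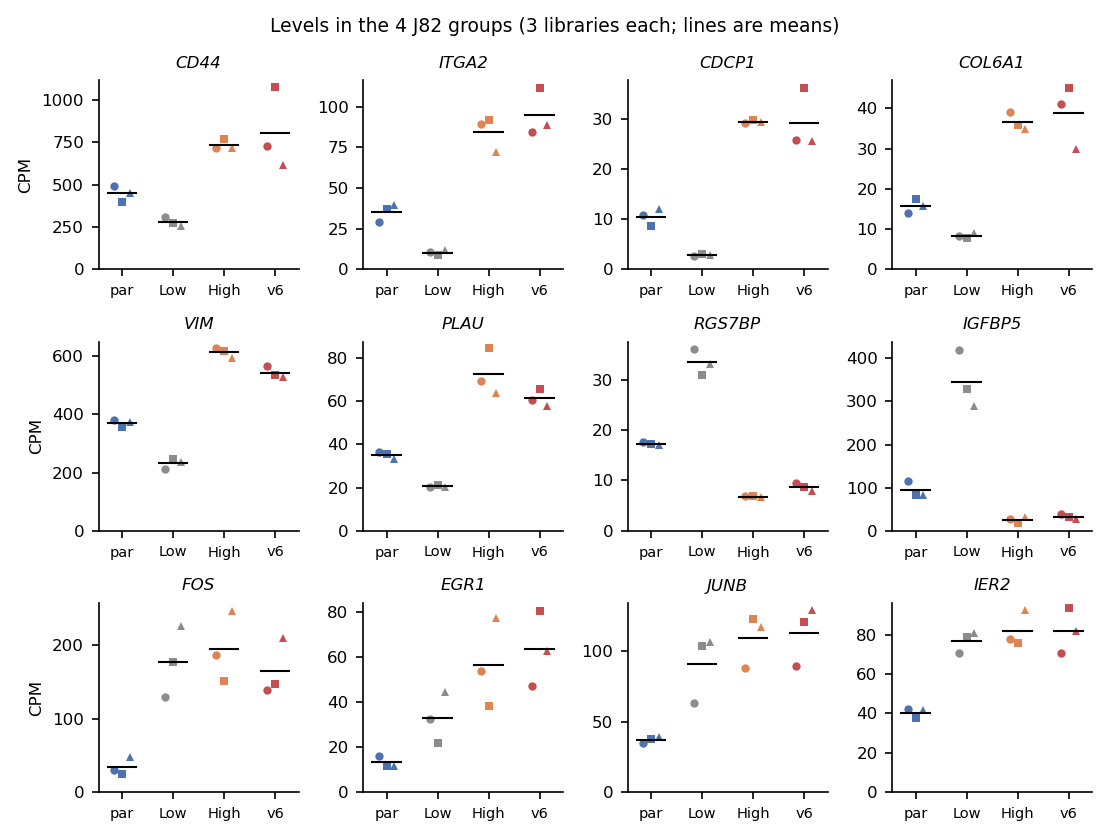
TMM-scaled CPM of 12 genes in each library of the 4 J82 groups (parental, CD44 Low, CD44 High and CD44v6; symbols give the replicate number and black lines the means). CD44, ITGA2, CDCP1, COL6A1, VIM and PLAU are lowest in CD44 Low and high in CD44 High and CD44v6, RGS7BP and IGFBP5 are highest in CD44 Low, and FOS, EGR1, JUNB and IER2 are lowest in the parental libraries.

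The NF-kB list fell between these patterns. Its median was 0.24 in CD44 Low, 0.73 in CD44 High and 0.95 in CD44v6, with 6 members called higher and 3 lower in CD44 Low and 17 called higher in CD44 High. CXCL8 was higher in all 3 lines, by 2.8, 3.47 and 3.07, while BIRC3 was lower in CD44 Low (-1.24) and higher in CD44 High and CD44v6 (1.12 and 1.03). Of 44 histone genes 37, 8 and 4 were called lower in CD44 Low, CD44 High and CD44v6.

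RT-112 offered libraries that the J82 comparison does not share. RT-112 CD44v6 against RT-112 parental gave 237 called genes (1.36%) in a fit of all 24 libraries. Of these, 25 were also called in J82 with the same sign, 23 higher and 2 lower, which is 6.02% of the J82 calls and 10.5% of the RT-112 calls, and 1, RBAK, had the opposite sign (0.41 in J82 and -0.85 in RT-112). With RT-112 fitted on its own 12 libraries, 15 were shared. Of the 297 genes called higher in J82, 213 had a positive difference in RT-112, with a median of 0.20. Of the 118 called lower, 61 had a negative one, with a median of -0.03. Genes with no count in these RT-112 libraries had a difference of 0 and stay in both totals and both medians. Over all genes tested in RT-112 the median was 0.028. RT-112 parental CD44 was at 317 ± 27.2 CPM and RT-112 CD44v6 at 448 ± 69.0 CPM (SD, n = 3), a difference of 0.50 that did not pass (adjusted p = 0.138).

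Genes that rose in both lines were mostly from the early-response lists. With the smaller of both changes as the measure, the largest shared changes were TNFAIP3 (1.93 in RT-112), NR1D1 (1.75) and CSRNP1 (1.36), and the small RNAs SNORA70 (-2.15) and SCARNA28 (-1.2 in J82 and -1.12 in RT-112) were lower in both. DUSP1, DUSP6, KLF4, KLF10 and ERRFI1 rose in RT-112 by 0.99, 0.92, 0.87, 1.41 and 0.68. The immediate-early list had 8 members called higher and none lower in RT-112, with a median of 0.53, and the NF-kB list had 1, with a median of 0.30. IL6, CXCL2, CXCL3, SPARC, RGS7BP, CDKN2B and PSG1 had no count in the 6 RT-112 parental and CD44v6 libraries, so their change could not be compared.

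Whether a change differed between J82 and RT-112 was tested by an interaction term in a fit of all 24 libraries. The term was called for 24 of 17438 genes (0.138%), 12 with a higher change in J82 and 12 with a lower one, and 16 of them were among the J82 calls. FOS rose by 2.25 in J82 and differed by 0.61 in RT-112, an interaction of 1.64 (SE 0.31, adjusted p = 0.0279). JUNB differed by 0.054 in RT-112, an interaction of 1.55 (adjusted p = 0.0135). ITGA2 and CDCP1 likewise had interactions of 1.51 and 1.1, each with an adjusted p of 0.027. ITGA2 was at 256 ± 31.8 CPM in RT-112 parental and 240.3 ± 68.1 CPM in RT-112 CD44v6 cells. For EGR1, FOSB and CDKN1A the interaction did not pass (adjusted p = 0.150, 0.0848 and 0.0508). Without single libraries the number of interaction calls ran from 3 to 217, with 3 without RT-112 parental replicate 2, 4 without J82 parental replicate 1, 13 without J82 CD44v6 replicate 2 and 217 without J82 CD44v6 replicate 3.

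**Figure D5:**
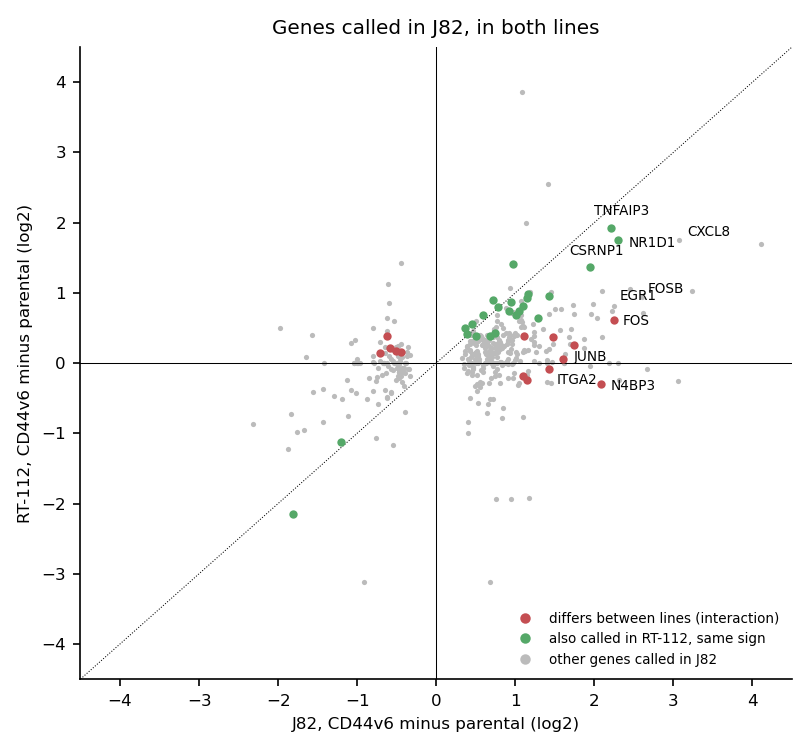
Log2 difference between CD44v6 and parental in RT-112 (vertical axis) against that in J82 (horizontal axis) for the genes called in J82, with red for a called interaction, green for a call of the same sign in RT-112 and a dotted line of equal change; 8 of the 415 genes, PAK6 and IGFBP5 among them, lie beyond 4.5 and are not shown. TNFAIP3, NR1D1 and CSRNP1 are the 3 green points furthest to the upper right, while FOS, JUNB and ITGA2 lie well below the dotted line.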

How the data were processed

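Total RNA purified on columns from J82 and RT-112 cells was sequenced as 24 libraries. The authors deposited a table of raw read counts per gene; HISAT2, StringTie and the GRCh37 build are named in the submitters' processing notes, without roles. The counting program, annotation and strand setting are not given in the sources used here. Every column matched the label of 1 library, and no line lacked a gene name.

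Counts of the 12 J82 libraries were scaled with TMM, filtered by edgeR's default for low counts (filterByExpr) and fitted in 1 model with 4 groups, so the spread is shared over groups of unequal spread (edgeR 4.0.16 in R 4.3.3, quasi-likelihood F-test, two-sided, Benjamini-Hochberg adjustment, threshold 0.05). The interaction with RT-112 was fitted on all 24 libraries. Standard errors are the absolute log2 fold change divided by the square root of F. The step was tested on simulated counts. Alternatives were other scalings, filters, libraries and tests (DESeq2 1.42.0, limma 3.58.1), a replicate block, each library left out, and, chosen after seeing the data, offsets for transcript length.

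The members and gene lists were chosen with earlier results of these data known. Genes named are CD44, the 12 largest called changes in each direction (average log2 CPM of at least 1), the 10 smallest p-values, called members and the 2 most abundant uncalled members of each list, and the 5 largest interactions in each direction. JUN, KLF10, IER5, BTG1, RHOB, PPP1R15A, TIPARP, MAFF, NFKBIZ, NFKBIE, NFKB2, RELB, TRAF1, ICAM1, BIRC3, LAMA5, PER1, BHLHE40, CALD1, GASK1B, RBAK, SCARNA6, SNORD133, PSG1, PSG2, PSG5 and PSG8 were chosen after their values were seen. Some genes that meet this rule are not reported here.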

Additional observations from a re-analysis of the deposited data

Results flagged for a closer look

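The change from parental to CD44v6 differed between J82 and RT-112 for 24 of 17438 genes in edgeR's interaction test over 24 libraries, against 2513 genes at an unadjusted p under 0.05 and 463 genes by DESeq2. The 5 largest differences on each side follow, as the log2 change in J82 minus that in RT-112. JUNB (1.55, adjusted p = 0.0135) and FOS (1.64, adjusted p = 0.0279) rose in J82. N4BP3 (2.38, adjusted p = 0.0348) was at 0.717, 0.607 and 2.06 CPM in J82 parental and 2.90, 5.73 and 5.70 CPM in J82 CD44v6 libraries, with means of 19.4 and 15.8 CPM in RT-112. RNF144B (-1.01, adjusted p = 0.0121) fell by 0.63 on the log2 scale in J82, and SF3B5 (-0.87, adjusted p = 0.0270) fell by 0.72. DENND2B (-0.997, adjusted p = 0.0159) rose by 0.73 in RT-112 and differed by -0.26 in J82, which did not pass.

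For 4 genes a group had no count, and their fitted differences depend on the prior count and are no bounds. They were PAK6 (6.85, adjusted p = 0.00152), ATP8A1 (7.37, adjusted p = 0.0270), FAM198B-AS1 (-6.92, adjusted p = 0.0121) and LINC00958 (-5.66, adjusted p = 0.0121). ATP8A1 had a mean of 0.448 CPM in RT-112 parental and 0 in RT-112 CD44v6 libraries, and LINC00958 0 and 0.309 CPM. PAK6 was at 11.5 and 14.7 CPM and FAM198B-AS1 at 4.35 and 4.003 CPM in RT-112 parental and CD44v6 libraries.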

How the results depend on the processing

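The 415 called genes became 253 with no filter on low counts, 1061 with DESeq2, 148 on the 6 libraries compared, 740 on all 24 libraries, 135 with a log2 change of at least 1, and 32 to 1120 without single libraries; the cause was not tested. The 24 interaction genes became 463 with DESeq2, 139 with voom, 14 with a log2 change of at least 1, and 3 to 217 without single libraries. Genes called in both lines numbered 25, or 15 with RT-112 fitted on its own 12 libraries. CD44 kept its direction in every alternative run, at 0.58 to 1.01 without single libraries. It missed the threshold on the 6 libraries compared (0.85, adjusted p = 0.0866) and without each parental replicate, where fewer parental libraries remained. The labels do not say that a replicate number marks a shared batch, and deviations of same-numbered parental and CD44v6 libraries correlated at 0.0247, -0.0690 and 0.0112, so the numbers were not taken to pair the samples. As a hint of structure by number, CD44v6 replicate 3 correlated more with replicate 3 of each other J82 group than with their replicates 1 and 2, and the small RNA share was lowest in replicate 3 of each J82 group. CD44v6 replicates 1 and 3, but not 2, correlated best with the parental library of their own number. With the replicate block 614 genes were called, 31 interactions, and CD44 differed by 0.82 (adjusted p = 0.0200).

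Of 126 called genes named besides CD44, none changed sign in an alternative that gave it a value; with a mean of at least 50 counts and with length offsets, 118 had one. Lost calls numbered 102, 95 and 77 without parental replicate 1, 2 or 3, 28, 61 and 8 without CD44v6 replicate 1, 2 or 3, 61 on the 6 libraries, 29 without a filter, 16 on all 24 libraries and at most 10 elsewhere. Changes of sign were seen in 3 uncalled genes near 0. SOD2 was at -0.00606 with length offsets. FN1 was at -0.015 with voom, -0.17 with length offsets, -0.071 without parental replicate 3, and between -0.21 and 0.29 without single CD44v6 libraries, with -0.00286 without replicate 1. LINC00958 was at 0.063 with length offsets, 0.00760 without parental replicate 2 and -0.12 to 0.023 without single CD44v6 libraries. Histone genes had no length in the annotation used, so length offsets could not be applied to them. Depth limits PAK6 and FAM198B-AS1, with 52 and 50 counts in all, to lower bounds.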
